A study of Homo sapiens with 6 samples.

Results

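The genes described here are 10 members of the transcriptional output of ERK, the extracellular signal-regulated kinase. They are 6 feedback genes (DUSP6, DUSP1, SPRY1, SPRY2, SPRED1 and SPRED2) and 4 immediate early genes (JUN, JUNB, FOS and EGR1). They were chosen by name from the 29810 genes of the table, and all 10 were present. The libraries hold messenger RNA of Kasumi-1, an established line of human myeloblasts from acute myeloid leukaemia, which carries the t(8;21) fusion of RUNX1 and RUNX1T1 and an activating mutation of the receptor KIT. Cells in 3 libraries had been kept with I1 at 0.125 µM for 48 h, and cells in 3 libraries had been kept with control for 48 h. I1 is known here only by this code name, and the labels do not say what the control contained. They also do not say whether the libraries of one group are separate cultures, and p-values therefore reflect the spread among these libraries alone, which may be technical.

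Growth factor receptors such as KIT switch on RAS, which passes the signal through RAF and MEK to ERK. Active ERK phosphorylates transcription factors that bind immediate early genes, and these genes are then transcribed within minutes without new protein synthesis. FOS and JUN proteins pair up as the factor AP-1, and EGR1 is a zinc finger factor. The same signal induces its own brakes: dual specificity phosphatases remove phosphate from MAP kinases, and Sprouty and SPRED proteins act on the signal upstream, near RAS and RAF. Levels of the feedback genes are therefore often read as a measure of ERK output.

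Levels are given as FPKM, in which fragments are scaled to gene length and to the library total, so that genes can be set side by side. Library totals, recovered from the steps of the low values, were 16391000 to 16948000 fragments with I1 and 17331000 to 18204000 in control, and 1 read in a kilobase was worth 0.0549 to 0.0610 FPKM. Control replicate 1 stood apart from the other libraries, at 43.8 on a first principal component with 52.1% of the variance, against -19.8 to 2.90 for the others. All 8 markers of an immature t(8;21) myeloblast were present. MPO, the myeloperoxidase of their granules, had 6361 to 7076 FPKM with I1 and 7006 to 9392 FPKM in control, and KIT had 190 to 203 FPKM with I1 and 149 to 179 FPKM in control. Of the markers of other cell types, 1 of 3 in the table for T cells had a mean of at least 1 FPKM (CD8A, 2.21 to 3.31 with I1 and 2.19 to 3.73 in control), while CD3E reached at most 0.0622 FPKM. For monocytes it was 1 of 2 (LYZ, 3.49 to 8.42 FPKM with I1 and 3.80 to 10.4 in control, with CD14 at most 0.117), and for B cells 1 of 2 (CD79A, 0.471 to 1.52 FPKM with I1 and 1.04 to 1.57 in control). For epithelial cells it was 1 of 3 (EPCAM, 26.7 to 31.3 FPKM with I1 and 23.2 to 27.6 in control, with KRT8 at 0). None of 4 erythroid or 2 fibroblast markers reached it, and HBA1 and HBA2 were at 0. The part of other cell types in the results was not tested. In bulk RNA, fewer cells that express a gene and less RNA per cell cannot be told apart.

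The 10 genes spanned a wide range of levels. JUNB was highest, with a mean over the 6 libraries of 31.6 FPKM (range 26.6 to 40.5), followed by DUSP6 at 24.8 (21 to 29) and JUN at 18.5 (11.7 to 27.7). SPRY2 had 11.0 FPKM (9.24 to 11.7) and SPRED2 7.50 (7.06 to 7.98). The remaining genes were lower, SPRY1 at 3.00 FPKM (2.40 to 3.48), DUSP1 at 2.61 (2.03 to 3.39), EGR1 at 2.34 (0.940 to 3.98), SPRED1 at 2.15 (1.06 to 2.79) and FOS at 1.35 (0.601 to 2.81). In this order the ranges of neighbours overlapped, except that the range of SPRY2 lay above that of SPRED2 and that of SPRED2 above that of SPRY1. JUNB lay above 89.7% of the 11913 tested genes by mean level and FOS above 8.22%. The test took genes that reached 1 FPKM in 3 or more libraries. All 10 passed, FOS through exactly 3 libraries, 1 with I1 and 2 in control.

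**Figure D1:**
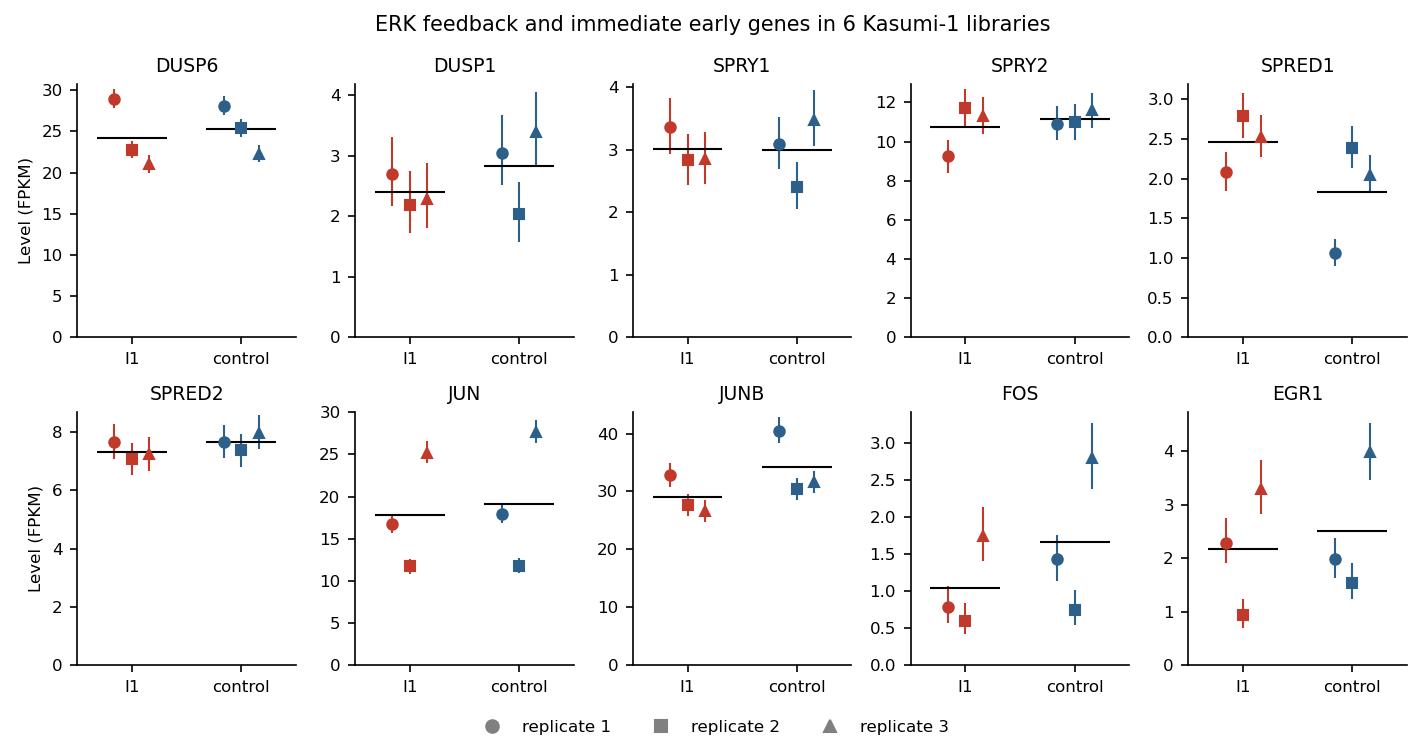
FPKM of each of the 10 genes in the 3 I1 libraries and, to their right, the 3 control libraries. Symbols mark the replicate number, vertical bars the exact 95% Poisson interval of the reads (counting error only) and horizontal lines the group mean; the ranges of both groups overlap in every panel, and in JUN, FOS and EGR1 replicate 3 is highest and replicate 2 lowest in both groups.

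DUSP6 (ENSG00000139318; chromosome 12, 89347232 to 89353271, minus strand, hg38) encodes a cytoplasmic phosphatase with a strong preference for ERK. It had 29, 22.8 and 21 FPKM in I1 replicates 1 to 3, against 28.1, 25.4 and 22.3 FPKM in control replicates 1 to 3. Replicate 1 was the highest and replicate 3 the lowest library of each group, and the groups overlapped over nearly their whole range. Means were 24.3 ± 4.19 FPKM with I1 and 25.3 ± 2.92 FPKM in control (SD, n = 3 each). Computed from log2(FPKM + 1), the log2 fold change of I1 over control was -0.06, and its 95% interval ran from -0.42 to 0.29 (limma adjusted p = 0.842).

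DUSP1 (ENSG00000120129; chromosome 5, 172768090 to 172771195, minus strand) encodes a nuclear phosphatase that acts on ERK, JNK and p38 and is itself an immediate early gene. It had 2.69, 2.19 and 2.29 FPKM with I1, against 3.05, 2.03 and 3.39 FPKM in control. Control replicates 1 and 3 were the highest libraries and control replicate 2 the lowest, so that all I1 values fell inside the control range. These values rest on 75 to 89 reads with I1 and 71 to 121 reads in control. The log2 fold change was -0.16 (95% interval -0.56 to 0.24, limma adjusted p = 0.649).

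SPRY1 and SPRY2 encode Sprouty proteins, inhibitors of signalling from receptor tyrosine kinases to RAS and RAF. SPRY1 (ENSG00000164056; chromosome 4, 123396795 to 123403760, plus strand) had 3.36, 2.83 and 2.85 FPKM with I1, against 3.09, 2.40 and 3.48 FPKM in control. All I1 values again lay inside the control range. SPRY2 (ENSG00000136158; chromosome 13, 80335976 to 80340951, minus strand) had 9.24, 11.7 and 11.3 FPKM with I1, against 10.9, 11.0 and 11.6 FPKM in control. Only I1 replicate 1 stood below the other 5 libraries. The log2 fold change was 0.01 for SPRY1 (95% interval -0.33 to 0.36) and -0.05 for SPRY2 (-0.35 to 0.24), with limma adjusted p of 0.967 and 0.828.

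SPRED1 and SPRED2 encode Sprouty-related proteins; SPRED1 recruits the RAS inactivator neurofibromin to the membrane. SPRED1 (ENSG00000166068; chromosome 15, 38252326 to 38357249, plus strand) had 2.08, 2.79 and 2.53 FPKM with I1, against 1.06, 2.39 and 2.05 FPKM in control. Control replicate 1 was far below the other 5 libraries, and each I1 library was above the control library of the same number. The log2 fold change was 0.32 (95% interval -0.17 to 0.80, limma adjusted p = 0.499), and it was 0.10 without control replicate 1. SPRED2 (ENSG00000198369; chromosome 2, 65310851 to 65432637, minus strand) had 7.66, 7.06 and 7.24 FPKM with I1, against 7.67, 7.37 and 7.98 FPKM in control. It was the steadiest of the 10 genes: its SD of log2 values within groups, 0.0517, exceeded that of 1.30% of tested genes. Its log2 fold change was -0.06 (95% interval -0.31 to 0.19, limma adjusted p = 0.784).

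JUN (ENSG00000177606; chromosome 1, 58780788 to 58784327, minus strand) encodes the main DNA-binding partner of FOS in AP-1. It had 16.7, 11.7 and 25.2 FPKM with I1, against 17.9, 11.8 and 27.7 FPKM in control. In both groups replicate 3 was highest, replicate 1 in the middle and replicate 2 lowest, and the I1 library lay slightly below the control library of the same number in 3 of 3 pairs. The log2 fold change was -0.08, with a wide 95% interval of -0.86 to 0.70 (limma adjusted p = 0.914).

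FOS (ENSG00000170345; chromosome 14, 75278774 to 75282230, plus strand), the classic immediate early gene, had 0.791, 0.601 and 1.75 FPKM with I1, against 1.43, 0.748 and 2.81 FPKM in control. The libraries stood in the same order as for JUN, and I1 was lower in 3 of 3 pairs. The reads numbered 42, 33 and 94 with I1 and 84, 42 and 161 in control. Means were 1.05 ± 0.614 FPKM with I1 and 1.66 ± 1.05 FPKM in control (SD, n = 3 each), and the log2 fold change was -0.35 (95% interval -1.08 to 0.39, limma adjusted p = 0.592). It was -0.05 without control replicate 3 and -0.61 without control replicate 2.

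EGR1 (ENSG00000120738; chromosome 5, 138465490 to 138469315, plus strand) had 2.29, 0.940 and 3.30 FPKM with I1, against 1.98, 1.54 and 3.98 FPKM in control. Replicate 3 was again highest and replicate 2 lowest in both groups. I1 was higher in 1 pair and lower in 2, and the log2 fold change was -0.15 (95% interval -0.94 to 0.63, limma adjusted p = 0.822). JUNB (ENSG00000171223; chromosome 19, 12791496 to 12793315, plus strand), a JUN relative that can also restrain JUN, had 32.8, 27.6 and 26.6 FPKM with I1, against 40.5, 30.4 and 31.6 FPKM in control. Here replicate 1 was the highest library of each group, a different order from that of JUN. Each I1 library had less JUNB than its same-numbered control library, and the log2 fold change was -0.22 (95% interval -0.57 to 0.12, limma adjusted p = 0.501). It was -0.10 without control replicate 1 and -0.31 without I1 replicate 1. HOOK2, on the other strand, overlaps JUNB and had 3.03 to 5.25 FPKM. The sources used here do not state if counting was by strand, so reads of the overlap cannot be told apart.

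The comparison asked which of these transcripts differed after 48 h with I1. Of the 10 genes, 0 rose and 0 fell by limma, where a call needed a Benjamini-Hochberg adjusted p under 0.05 over all tested genes together with a log2 difference of 1 or more. Of all tested genes 0.0336% were called. At an unadjusted p under 0.05 the count was 0 of 10 as well, against 9.57% of all tested genes. The median log2 fold change of the 10 genes was -0.07, with 8 below 0, against 0.03 over all tested genes, of which 45.5% were below 0. Groups that did not overlap were seen in 0 of 10 genes in either direction, against 12.9% of tested genes higher with I1 and 8.74% lower. In same-numbered pairs 4 of 10 (JUN, JUNB, FOS and SPRED2) were lower with I1 in 3 of 3, against 25.8% of tested genes, and 1 (SPRED1) was higher in 3 of 3, against 32.1%. On the log2(FPKM + 1) scale, which compresses the changes of low genes, the 95% interval stayed within 1 of 0 for 9 of the 10 genes and reached beyond it, on the lower side, for FOS. With a pseudocount of 0.1 the log2 fold change was -0.24 for EGR1 (standard error 0.492, against 0.341 here). For SPRED1 it was 0.47 (0.313, against 0.209). Intervals that wide reach beyond 1 in size, so the count of 9 depends on the pseudocount.

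**Figure D2:**
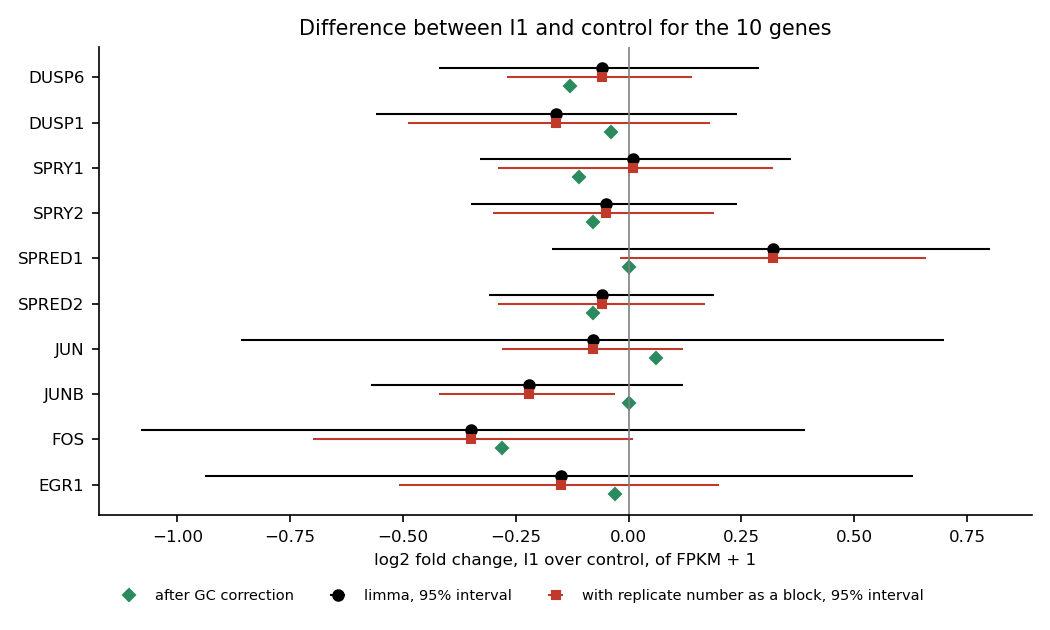
log2 fold change of I1 over control for each gene, without the replicate number (black circles), with it as a block (red squares) and after a correction for GC content (green diamonds); bars are 95% intervals of the first 2 fits. Every black interval includes 0, and with the block only that of JUNB does not.

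Levels of JUN, FOS and EGR1 differed more between replicate numbers than between I1 and control. JUN was 2.16-fold higher in replicate 3 than in replicate 2 with I1 (exact 95% interval of the read ratio 1.98 to 2.37, counting error only) and 2.36-fold higher in control (2.16 to 2.57). FOS was 2.90-fold higher with I1 (1.93 to 4.46) and 3.76-fold higher in control (2.66 to 5.41). EGR1 was 3.51-fold higher with I1 (2.55 to 4.91) and 2.58-fold higher in control (2.00 to 3.36). For each of these genes the difference exceeded the counting error in both groups. The order of replicate 3, then 1, then 2 in both groups was shown by these 3 of the 10 genes, against 3.42% of tested genes. This order was itself taken from these 3 genes after their values were seen. The count is therefore a description and no test against that share. JUNB did not share it, at 0.966-fold with I1 (0.876 to 1.06) and 1.04-fold in control (0.95 to 1.14). DUSP6 ran the other way, at 0.920-fold with I1 (0.859 to 0.984) and 0.879-fold in control (0.825 to 0.937), as did its relative DUSP4 among the other phosphatases.

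The difference between replicate numbers was tested in a limma fit with group and number, a test chosen after these values were seen. JUN passed (adjusted p = 0.0152 over all tested genes), as did 2.14% of all tested genes. The other 9 genes did not pass, EGR1 at an adjusted p of 0.0686 and FOS at 0.0798. At an unadjusted p under 0.05 there were 5 of 10 (JUN, EGR1, FOS, DUSP6 and JUNB), against 26.2% of tested genes. JUN lost the call without I1 replicate 2 (adjusted p = 0.0551), without control replicate 2 (0.0819) and with no filter on low values (0.213). Among protein-coding genes alone JUN, EGR1 and FOS passed (adjusted p = 0.000462, 0.00456 and 0.00391), as did 13.9% of all genes in that fit. The labels do not say what the replicate numbers stand for, and what sets them apart was not tested.

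**Figure D3:**
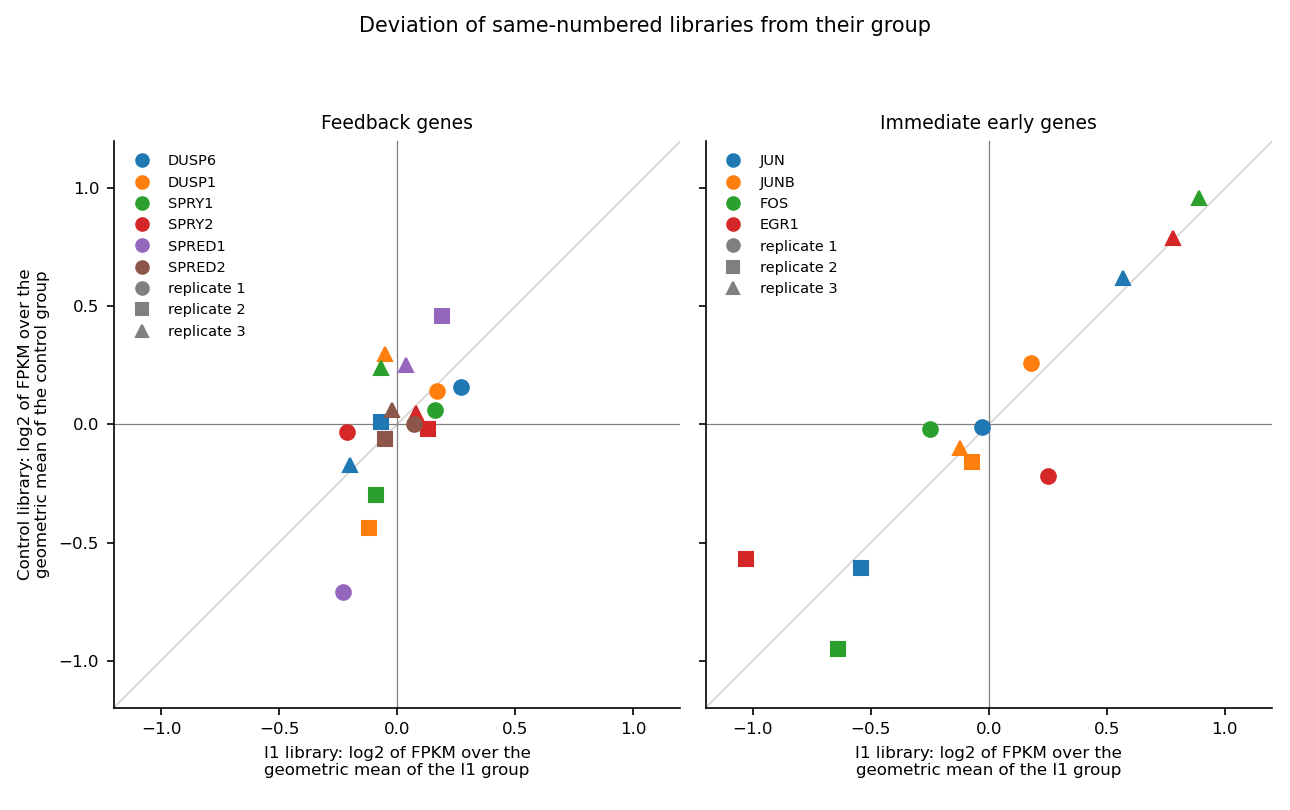
For each gene and replicate number, the deviation of the I1 library (horizontal) and of the same-numbered control library (vertical) from the geometric mean of its group, in log2 units, with the line of equal deviation in grey. JUN, FOS and EGR1 lie at the upper right for replicate 3 and at the lower left for replicate 2, and the lowest point of SPRED1 is control replicate 1.

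The residual SD of JUN on the log2 scale was 0.0432 with the replicate number as a block and 0.556 without it, and that of FOS 0.135 with the block and 0.494 without it. The median over all tested genes was 0.128 with the block and 0.196 without it. The block narrowed the 95% interval of JUN to -0.28 to 0.12 and that of FOS to -0.70 to 0.01. Of the 10 genes 0 were called by limma with the block, against 0.0504% of tested genes. The smallest adjusted p was 0.158, for JUNB, which was also the 1 gene at an unadjusted p under 0.05, against 27.1% of tested genes.

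Promoters of JUN, FOS and EGR1 are printed because these genes moved together over the replicate numbers, and that of DUSP1 because it holds the 1 full cAMP response element (CRE) of the set. Each window runs from 250 bases before to 50 bases after a RefSeq start on GRCh38.p14, read 5′ to 3′ on the strand of the gene. Capitals mark matches, on either strand, to the CRE (TGACGTCA), to its core TGACG, which the full CRE contains on both strands, and to the CArG box, the element bound by SRF. JUN lies at chr1:58783998-58784297 (minus strand), FOS at chr14:75278578-75278877 (plus), EGR1 at chr5:138465229-138465528 (plus) and DUSP1 at chr5:172771146-172771445 (minus).
JUN: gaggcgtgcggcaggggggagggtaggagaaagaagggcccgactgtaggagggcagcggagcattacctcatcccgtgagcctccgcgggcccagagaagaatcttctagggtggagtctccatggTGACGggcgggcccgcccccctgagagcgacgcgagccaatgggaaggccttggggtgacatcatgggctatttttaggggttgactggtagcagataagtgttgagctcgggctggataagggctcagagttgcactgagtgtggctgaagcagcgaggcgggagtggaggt
FOS: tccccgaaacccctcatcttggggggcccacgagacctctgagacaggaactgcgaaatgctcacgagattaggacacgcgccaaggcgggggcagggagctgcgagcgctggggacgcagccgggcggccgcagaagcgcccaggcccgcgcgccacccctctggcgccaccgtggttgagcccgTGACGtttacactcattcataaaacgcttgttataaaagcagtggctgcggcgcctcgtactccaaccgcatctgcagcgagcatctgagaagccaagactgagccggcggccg
EGR1: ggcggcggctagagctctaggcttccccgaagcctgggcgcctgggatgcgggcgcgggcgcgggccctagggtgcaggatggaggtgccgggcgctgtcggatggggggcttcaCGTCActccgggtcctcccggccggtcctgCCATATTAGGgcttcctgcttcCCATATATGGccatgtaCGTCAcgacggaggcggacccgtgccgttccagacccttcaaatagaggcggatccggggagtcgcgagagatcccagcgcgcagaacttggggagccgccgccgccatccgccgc
DUSP1: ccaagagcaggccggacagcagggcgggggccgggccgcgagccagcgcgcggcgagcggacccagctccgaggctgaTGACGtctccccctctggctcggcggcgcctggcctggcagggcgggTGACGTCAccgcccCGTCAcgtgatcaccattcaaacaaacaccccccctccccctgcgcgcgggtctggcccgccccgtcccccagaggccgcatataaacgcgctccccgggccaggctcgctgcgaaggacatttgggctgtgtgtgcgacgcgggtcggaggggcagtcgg

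EGR1 held 2 CArG boxes, whose first bases lie at -105 and -83 from the start, and 2 CRE cores. A CArG box was found in 1 of the 14 windows of the 10 genes, against 1.29% of all 35116 windows of the same length. DUSP1 held the CRE at -125 from its start and 4 cores, 2 of them within the CRE. A full CRE was found in 1.85% of all windows. JUN and FOS held 1 core each, and a core was found in 7 of the 14 windows against 24.6% of all. The AP-1 site TGANTCA was found in 1 of the 14 windows, the second of SPRED2, against 7.71% of all. A match is a description of letters. Variants of these letters and elements outside the windows were not searched, so a window without a match may still hold a variant of the site.

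GC content of transcripts moved with the comparison. Over 11899 tested genes with a known GC content, the log2 fold change was lower at higher GC content (Spearman's rho -0.753, a description across genes). The 1988 genes under 40% GC had a median of 0.36 and the 1604 genes at 60% or more a median of -0.21. SPRED1, with 38.9% GC the poorest of the 10 genes, had the largest positive log2 fold change of the set, and JUNB, with 64.9% the richest, the second most negative. After a smooth trend on GC content was removed in each library, SPRED1 had a log2 fold change of 0.00 and JUNB of 0.00. The trend was removed without regard to group, so any difference between I1 and control that follows GC content goes with it. Where the trend comes from was not tested. FOS, at 52.6% GC, had -0.28, and DUSP6, at 46.7% GC, had -0.13. With the block and the GC correction together 0 of the 10 were called, against 0.00839% of tested genes. In that fit DUSP6 was the 1 gene of 10 at an unadjusted p under 0.05 (0.0465, adjusted p = 0.305), against 16.1% of tested genes.

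**Figure D4:**
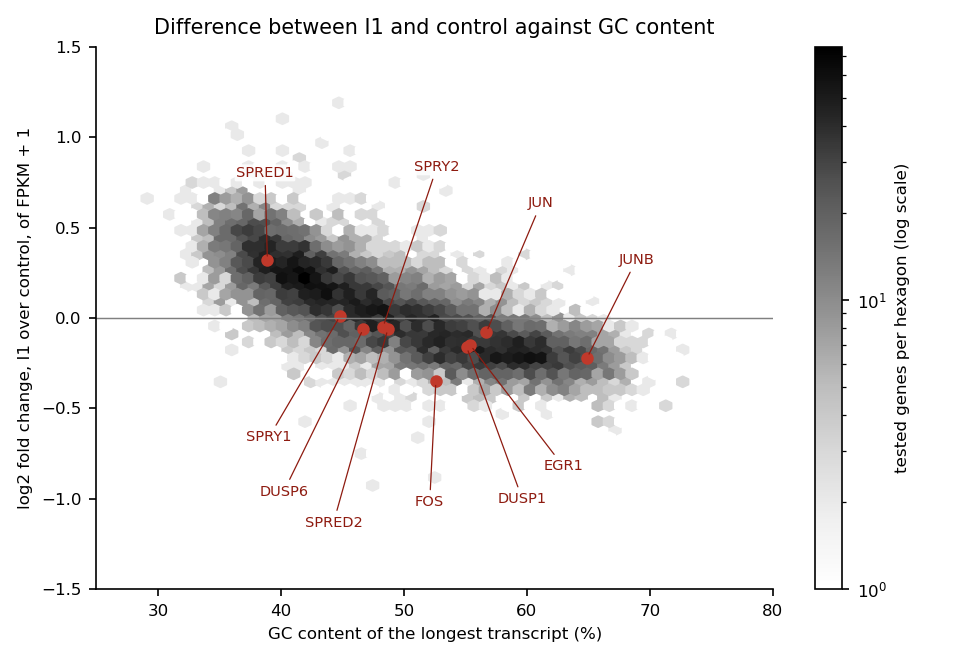
log2 fold change of I1 over control against GC content of the longest annotated transcript, for all tested genes (grey hexagons, darker for more genes on a log scale) and the 10 genes (red). The vertical axis is limited to 1.5 in size; values fall from left to right, and SPRED1 and JUNB lie inside the cloud at its left and right.

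The rest of the pathway was read from 9 lists with 131 genes, of which 2 were not analysed here and 91 were tested. By limma 0 of the 91 rose and 0 fell, with 7 at an unadjusted p under 0.05, against 9.57% of all tested genes. Over the 91 genes the median log2 fold change was -0.07, and -0.00 after the GC correction. Sprouty and SPRED relatives stayed below the filter. SPRY4 averaged 0.577 ± 0.292 FPKM with I1 and 0.632 ± 0.186 FPKM in control, SPRY3 reached at most 0.267 FPKM and SPRED3 at most 0.0312 FPKM. Several immediate early genes were also low, with FOSB at 0.356 ± 0.207 FPKM with I1 and 0.301 ± 0.188 FPKM in control and NR4A1 at 0.344 ± 0.137 FPKM with I1 and 0.396 ± 0.186 FPKM in control (SD, n = 3 each). EGR2 reached at most 0.0496 FPKM and EGR3 at most 0.0226 FPKM.

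The median log2 difference of the other MAP kinase phosphatases was -0.16 over 7 tested genes, 5 of them below 0, and -0.03 after the GC correction. In same-numbered pairs 5 of the 7 were lower in 3 of 3, against 25.8% of all tested genes. DUSP4, a nuclear phosphatase of ERK, had 15.1, 13.5 and 8.56 FPKM with I1, against 14.6, 13.8 and 8.09 FPKM in control. Replicate 3 was lowest in both groups, and DUSP4 passed the test between replicate numbers (limma adjusted p = 0.0365). DUSP16, which prefers JNK, had 12.5 ± 2.07 FPKM with I1 and 11.9 ± 1.51 FPKM in control. DUSP14 was the 1 gene of this list whose groups did not overlap, at 8.84 to 9.92 FPKM with I1 and 10.1 to 11.5 FPKM in control (limma adjusted p = 0.499). Of all tested genes, 8.74% had groups that did not overlap and were lower with I1.

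Other AP-1 and EGR family genes had a median of -0.29 over 6 tested genes, 5 below 0, and of -0.15 after the GC correction. JUND, the most abundant AP-1 gene here, had 35.2, 33.2 and 54.8 FPKM with I1, against 56.9, 38.9 and 63.5 FPKM in control. Replicate 3 was highest and replicate 2 lowest in both groups, as in JUN. Its log2 fold change was -0.37, with a limma adjusted p of 0.495, and -0.11 after the GC correction. FOSL2 had 15.3, 13.4 and 15.9 FPKM with I1, against 17.3, 14.9 and 21 FPKM in control, with a log2 fold change of -0.23 (limma adjusted p = 0.495). Both were lower with I1 in 3 of 3 pairs. Both also showed the order of replicate 3, then 1, then 2 in both groups, as did 3.42% of all tested genes. NAB2, a corepressor that binds EGR1, had groups that did not overlap and was lower with I1, as did 8.74% of all tested genes. It had 6.92 to 7.99 FPKM with I1 and 8.84 to 10.6 FPKM in control (log2 fold change -0.35, limma adjusted p = 0.467). After the GC correction its log2 fold change was -0.15. The 1 gene of the list above 0 was NAB1, a relative of NAB2, at 7.48 to 8.34 FPKM with I1 and 4.13 to 7.73 FPKM in control (log2 fold change 0.37, limma adjusted p = 0.467, and 0.09 after the GC correction).

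Other immediate early genes had a median of -0.14 over 17 tested genes, 11 below 0, and of -0.02 after the GC correction. Their most abundant members were MCL1, an apoptosis inhibitor, at 57.4 ± 1.89 FPKM with I1 and 50.8 ± 9.74 FPKM in control, and SRF, the factor that binds CArG boxes, at 21.5 ± 1.19 FPKM with I1 and 27.5 ± 5.61 FPKM in control (SD, n = 3 each). SRF had groups that did not overlap, at 20.6 to 22.8 FPKM with I1 and 23.6 to 33.9 FPKM in control. Such a separation on the lower side was seen in 8.74% of all tested genes. The log2 fold change of SRF was -0.33 (limma adjusted p = 0.467) and -0.14 after the GC correction. The order of replicate 3, then 1, then 2 in both groups, seen in JUN, FOS and EGR1, was shown by 4 of these 17 genes. Over all lists 8 of the 91 tested genes showed it, against 3.42% of all tested genes. ZFP36L1 and RGS2 passed the test between replicate numbers (limma adjusted p = 0.0443 and 0.0455), but in orders of their own. ZFP36L1 had 5.97, 2.24 and 4.06 FPKM with I1, against 4.64, 2.08 and 3.47 FPKM in control. Replicate 1 was its highest library. RGS2, an inhibitor of G protein signalling, had 1.22, 1.58 and 3.44 FPKM with I1, against 0.891, 1.16 and 2.94 FPKM in control, with replicate 3 highest. ZFP36L1, RGS2, DUSP14, NAB1, NAB2, IL1RAP and the genes named above as low were chosen after their values were seen.

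Other output genes of ERK had a median of -0.13 over 6 tested genes, 5 below 0, and of -0.04 after the GC correction. MYC had 393, 308 and 309 FPKM with I1, against 538, 337 and 297 FPKM in control. Control replicate 1 was far above the other 5 libraries, and the log2 fold change of -0.18 (limma adjusted p = 0.701) was 0.08 without that library. SPHK1, a sphingosine kinase, had 9.75, 6.53 and 5.68 FPKM with I1, against 14.7, 8.36 and 9.91 FPKM in control, lower in 3 of 3 pairs (log2 fold change -0.52, limma adjusted p = 0.467, and -0.29 after the GC correction). IL1RAP, a coreceptor for interleukin signals, was the 1 gene of the list above 0. It had 4.92, 7.68 and 9.75 FPKM with I1, against 2.73, 6.50 and 7.54 FPKM in control, higher in 3 of 3 pairs (log2 fold change 0.40, limma adjusted p = 0.561, and 0.18 after the GC correction). Replicate 3 was highest and replicate 1 lowest in both groups, and IL1RAP passed the test between replicate numbers (limma adjusted p = 0.0443).

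Genes of the cascade that feeds these genes ranged in mean level from 0.0329 FPKM for RRAS2, which was not tested, to 179 FPKM for KIT. Of 26 tested genes from KIT to the kinases downstream of ERK, 13 were above and 13 below 0, with a median of 0.01, and of 0.02 after the GC correction. KIT had a mean of 196 ± 6.88 FPKM with I1 and 162 ± 15.7 FPKM in control, and the adaptor GRB2 84.3 ± 7.62 FPKM with I1 and 84.4 ± 9.08 FPKM in control (SD, n = 3 each). The log2 fold change of KIT was 0.28 (limma adjusted p = 0.467) and 0.09 after the GC correction. Groups did not overlap for 8 of these 26 genes that were higher with I1, KIT among them, against 12.9% of all tested genes. They did not overlap for 4 that were lower, against 8.74%. The SRF, CREB and ETS factors had a median of 0.09 over 8 tested genes and of 0.02 after the GC correction, with ETS2 at 32.7 ± 4.37 FPKM with I1 and 32.0 ± 5.36 FPKM in control. GTPase activating and other inhibitory genes had a median of 0.02 over 11, with PEBP1, a RAF inhibitor, at 189 ± 15.1 FPKM with I1 and 211 ± 29.6 FPKM in control and the ubiquitin ligase CBL at 18.7 ± 0.918 FPKM with I1 and 16.6 ± 3.47 FPKM in control (SD, n = 3 each). JNK and p38 kinases had a median of 0.03 over 11, with MAPK14, which encodes p38 alpha, at 25.1 ± 0.0554 FPKM with I1 and 24.0 ± 1.29 FPKM in control. MAPKAPK2, a substrate kinase of p38, had 19.5 ± 0.277 FPKM with I1 and 23.4 ± 2.54 FPKM in control (limma adjusted p = 0.467). Its groups did not overlap, as in the 8.74% of all tested genes separated on the lower side.

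**Figure D5:**
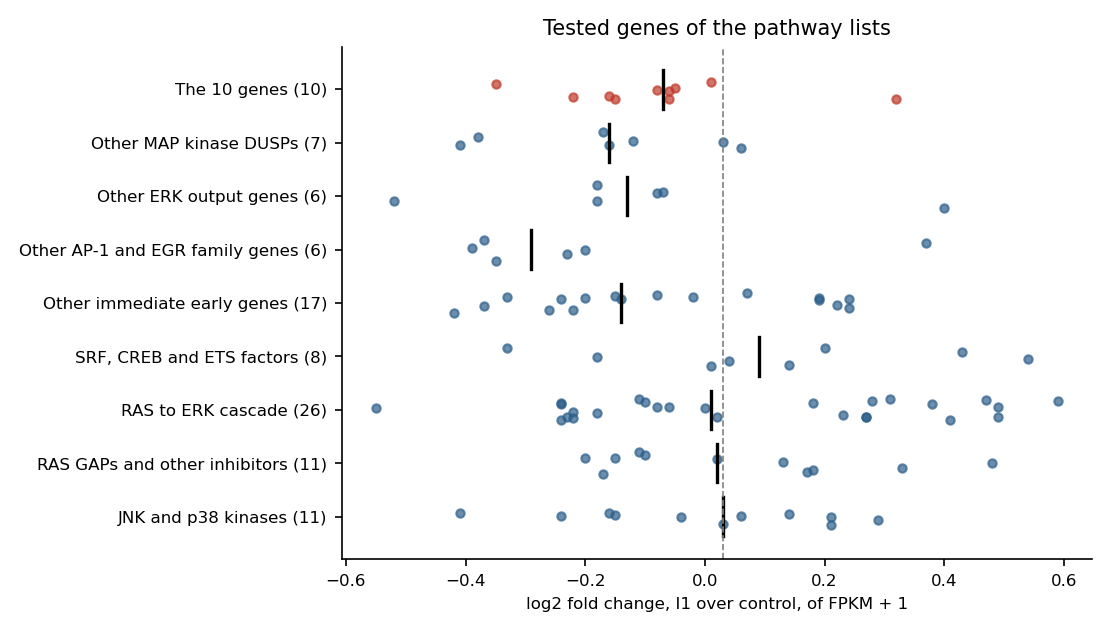
log2 fold change of I1 over control for the tested genes of each list (number in brackets), with the list median as a black bar and the median of all tested genes, 0.03, as a dashed line. Each list has genes on both sides of 0.

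Among 9848 protein-coding genes outside the set, those whose standardised log2 values over the 6 libraries lay nearest to the mean profile of JUN, JUNB, FOS and EGR1 were PSD4, PHYKPL and DENND5A, with root mean square differences of 0.213, 0.214 and 0.217 SD units. PSD4 had 2.68, 1.75 and 2.97 FPKM with I1, against 3.15, 2.02 and 3.64 FPKM in control. PSD4 showed the order of replicate 3, then 1, then 2 in both groups, which its choice by likeness to that profile favours. For the mean profile of the 6 feedback genes KIF3C, ZC3H4 and NINL came nearest, at 0.570, 0.578 and 0.581. These 6 genes differ among themselves: replicate 1 was the highest library of each group for DUSP6 and the lowest for SPRED1. Averaging unlike profiles flattens the mean, which by itself enlarges these distances. They therefore do not show whether genes like the feedback genes are lacking.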

How the data were processed

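RNA of 6 Kasumi-1 libraries was measured, 3 with I1 and 3 with control. Extraction was with Trizol and library preparation with Illumina's kit for stranded mRNA (TruSeq), per the labels' protocols. The tools named in the submitters' processing notes are HTSeq, Cufflinks, HISAT2 and Trimmomatic, and the build is hg38; the notes used here give no versions, annotation or use of strand. What the authors deposited is FPKM for 29810 genes, in 1 table. The table is named after a different agent and different lines, although its 6 columns carry the titles of these samples; columns not used numbered 0. FPKM divides by gene length and a library total, so a change in abundant genes shifts all others.

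Exon lengths and coordinates (1-based) came from GENCODE release 29 and matched 29703 genes. They turned the FPKM of 95.9% of these genes, all 10 members included, into reads that were whole in each library to within 0.05; with shuffled lengths the share was 0.25% of genes above 0 in all libraries. Replicates of a group differed by more than counting error in each pair (chi-square divided by its degrees of freedom, 21.5 to 73.3).

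limma 3.58.1 in R 4.3.3 was fitted with an intensity trend to log2(FPKM + 1) of 11913 genes that reached 1 FPKM in 3 or more libraries (tables with Python 3.11.15). The fit was also run on simulated reads. These held no trend on GC content and no outlying library, so that run does not show how the fit behaves with either. Calls needed an adjusted p under 0.05 together with a log2 difference of 1 or more in either direction, with 2-sided tests. This scale compresses the changes of low genes. Libraries of the same number deviated together (correlations of their deviations 0.476, 0.457 and 0.412), so the numbers were taken to pair the libraries. GC content was that of the longest transcript, and its trend was removed by lowess with a span of 0.3. Genes were named by rule (the 10 members, the 2 most abundant tested genes of each list, list genes called for I1 against control, and the 3 genes nearest in profile to each kind of member); other genes named in the report were chosen after their values were seen. Members and lists were chosen with earlier results of these data known. Alternatives were other pseudocounts, filters and scalings, the GC correction, the replicate block and leaving out each library; the test between replicate numbers was added after the data were seen.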

Additional observations from a re-analysis of the deposited data

How the results depend on the processing

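By limma, 0 of the 10 genes were called for I1 against control under every alternative run. Over all genes the count was 4, and it was 0 with a pseudocount of 0.1 or 0.5, no filter, a mean of at least 5 FPKM, protein-coding genes only or the GC correction, 2 with quantile normalization and 1 with the replicate block plus GC correction. The replicate block alone gave 6 and changed no call of a member. Leaving out 1 library gave 0 to 2. Groups of 2 against 3 separate more often by construction. Without I1 replicate 1 the groups of 1 member (SPRED1) did not overlap on the higher side and those of 2 (SPRED2 and JUNB) on the lower side, against 21.1% and 15.9% of tested genes. Without control replicate 2 these were 1 (SPRED1) and 2 (SPRED2 and DUSP1), against 24.7% and 15.7%. The 4 other such fits gave 0.

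The test between replicate numbers, added after the data were seen, called 255 genes. It called 0 with no filter, 493 at a mean of at least 5 FPKM, 1368 among protein-coding genes, 384 with quantile normalization, 730 with the GC correction and 54 to 3528 with 1 library left out. Of the members it called 1 (JUN), 0 with no filter, 3 among protein-coding genes, 2 with median scaling, 3 with the GC correction and 0 to 3 with 1 library left out. The cause was not tested.

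Of 489 alternative values for the log2 fold changes of 31 named genes, 45 changed sign, in 15 genes, and all of these were uncalled. SPRY1 was at -0.02 with median scaling, -0.08 with quantile normalization and -0.11 with the GC correction, alone or with the block. The GC correction, alone or with the block, gave 0.06 for JUN, 0.00 for JUNB, -0.00 for DUSP16, 0.06 for GRB2, -0.02 for MAPK14, 0.09 for PHYKPL, 0.11 for ZC3H4 and 0.05 for NINL. Median scaling gave -0.02 for DUSP4 and -0.01 for ETS2, and quantile normalization gave -0.01 for DUSP4 and 0.05 for GRB2. With 1 library left out at a time the ranges were -0.19 to 0.03 for DUSP6, -0.10 to 0.10 for SPRY1, -0.11 to 0.04 for SPRY2, -0.37 to 0.22 for JUN, -0.41 to 0.17 for EGR1, -0.22 to 0.25 for DUSP4, -0.06 to 0.14 for DUSP16, -0.35 to 0.08 for MYC, -0.10 to 0.13 for ETS2, -0.08 to 0.07 for GRB2 and -0.19 to 0.01 for NINL.

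FOS rests on 33 to 161 reads a library and DUSP1 on 71 to 121. Without the replicate block the 95% intervals were -0.86 to 0.70 for JUN, -1.08 to 0.39 for FOS and -0.94 to 0.63 for EGR1, and with it -0.28 to 0.12, -0.70 to 0.01 and -0.51 to 0.20.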

Other observations

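The 7 Jun and Fos genes were compared as shares of their summed FPKM, since AP-1 is built from pairs of their proteins. The summed level was 107, 90.3 and 130 FPKM in I1 replicates 1 to 3, against 142, 101 and 153 FPKM in control replicates 1 to 3. JUND took 37.2% ± 4.65 of it with I1 and 40% ± 1.53 in control, JUNB 27.2% ± 5.83 with I1 and 26.4% ± 5.02 in control, and JUN 16% ± 3.24 with I1 and 14.1% ± 3.52 in control (SD, n = 3 each). FOSL2 took 13.8% ± 1.37 with I1 and 13.5% ± 1.32 in control. FOS took 0.915% ± 0.371 with I1 and 1.19% ± 0.575 in control, less than FOSL1, at 4.67% ± 0.739 with I1 and 4.53% ± 0.977 in control. In replicate 3, where JUND, JUN and FOS were high, JUNB took 20.5% with I1 and 20.7% in control, against 28.5% to 30.6% in the other 4 libraries. From replicate 2 to replicate 3, JUNB itself went from 27.6 to 26.6 FPKM with I1 and from 30.4 to 31.6 FPKM in control. JUND went from 33.2 to 54.8 FPKM with I1 and from 38.9 to 63.5 FPKM in control. These shares are of transcript levels and were not tested.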
